A study of Homo sapiens with 6 samples.

Results

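The genes described here are 40 genes of the endoplasmic reticulum (ER), which encode its chaperones, its stress sensors, its oxidative folding enzymes, the machinery of ER-associated degradation and the protein-conducting channel. They were chosen by gene symbol, and each of the 40 symbols matched 1 row among the 62710 Ensembl genes of the count table. Their RNA was measured by RNA-seq in HCT116 cells, a human colon cancer cell line. Lentivirus had delivered either a short hairpin RNA against IGF2BP3 (sh-IGF2BP3, 3 libraries) or a scrambled control hairpin (sh-NC, 3 libraries). Both kinds of cells were stable lines kept after puromycin selection, 1 hairpin sequence was used against IGF2BP3, and no drug that disturbs protein folding is named for these samples. IGF2BP3 is an RNA-binding protein that can alter the stability and translation of its target mRNAs. The comparison asks whether the ER folding genes differed in RNA level between the knockdown and the control lines.

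The ER folds secreted and membrane proteins, and it answers an excess of unfolded protein with the unfolded protein response. HSPA5 (BiP) holds the sensors IRE1 (encoded by ERN1), PERK (EIF2AK3) and ATF6 inactive until unfolded protein draws it away. Active IRE1 splices the XBP1 mRNA, active PERK phosphorylates eIF2α and raises translation of ATF4, and active ATF6 is cut in the Golgi to release a transcription factor. Spliced XBP1 and cleaved ATF6 then raise transcription of chaperones and degradation factors. Counts per gene measure the total RNA of each sensor, so splicing of XBP1, phosphorylation of PERK and cleavage of ATF6 were not measured.

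Many genes of this response carry short elements near their start sites, and matches to these elements among the 40 genes are described here. The ER stress response element (ERSE, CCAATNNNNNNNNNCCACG) is bound by NF-Y at its first part and by ATF6 at its last. ERSE-II is ATTGGNCCACG, and the XBP1-bound element UPRE was searched as TGACGTGG. Both strands were searched in the RefSeq promoter windows of GRCh38.p14, which run from 250 bases before to 50 bases after a listed start, and 37 of the 40 genes had such a window. PDIA3, DERL1 and DERL3 had none. The 37 genes had 46 windows, and a gene was counted if any of its windows matched. Counts of genes and shares of windows are thus in different units. ERSE was found in 8 of the 37 genes and in 0.0769% of all 35116 windows. ERSE-II was found in 3 of the 37 genes and in 0.0541% of all windows, and UPRE in 4 of the 37 genes and in 0.729% of all windows. In HYOU1 the UPRE overlapped an ERSE-II site. In the lines that follow, each sequence reads 5′ to 3′ on the strand given, with the element in capitals, and of the 2 sites in HSP90B1 and in HYOU1 the one nearer the start is shown.
HSPA5, ERSE at chr9:125241391-125241409, minus strand: tcaCCAATCGGCGGCCTCCACGacg
HSP90B1, ERSE at chr12:103930321-103930339, minus strand: ccaCCAATCGCGCCGCACCACGcac
CALR, ERSE at chr19:12938384-12938402, minus strand: cgaCCAATGATGGTCGACCACGcgt
CANX, ERSE at chr5:179698778-179698796, plus strand: cggCCAATCTTCACACTCCACGaag
CRELD2, ERSE at chr22:49918554-49918572, minus strand: ggcCCAATCCGAGTTCGCCACGaga
PDIA6, ERSE at chr2:10812853-10812871, minus strand: ggaCCAATGAGCCGCAGCCACGgct
ERO1B, ERSE at chr1:236282183-236282201, plus strand: cggCCAATGAGGCGGGACCACGcgg
XBP1, ERSE at chr22:28800603-28800621, minus strand: tggCCAATCGCGGAGGGCCACGacc
HERPUD1, ERSE-II at chr16:56932025-56932035, plus strand: ccgATTGGGCCACGttg
HYOU1, ERSE-II at chr11:119057274-119057284, plus strand: ctcATTGGACCACGtcc
SDF2L1, ERSE-II at chr22:21642114-21642124, minus strand: ttgATTGGTCCACGctt
TXNDC5, UPRE at chr6:7910162-7910169, minus strand: ggcTGACGTGGcgc
The remaining 3 genes with a UPRE were HYOU1, SEC62 and TXNDC11. A match describes the letters of the window and does not show that a factor binds there in HCT116 cells.

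The libraries held between 16146718 and 23576469 counts. IGF2BP3 itself was at 90.3, 84.1 and 70.3 CPM (counts scaled to a common library size) in sh-NC 1 to 3 and at 60.2, 52.3 and 55.8 CPM in sh-IGF2BP3 1 to 3. All 3 knockdown libraries lay below all 3 controls, with a log2 fold change of −0.54 (SE 0.18, adjusted p = 0.126). Of the epithelial markers, 6 of 6 had counts, with a summed level of 1741 to 3156 CPM in sh-NC and 2655 to 3389 CPM in sh-IGF2BP3, although the intestinal marker VIL1 was near 0 in both groups (means of 0.0649 and 0.104 CPM). The summed leukocyte markers reached at most 1.12 CPM and the endothelial markers at most 4.44 CPM. Of the fibroblast markers, COL1A2 and LUM had 0 counts and COL1A1 made up nearly all of the sum of 28.3 to 58.7 CPM. In the series as a whole, the log2 fold change was larger at higher GC content (Spearman's rho 0.61 across 16236 genes whose GC content and length were known). Results are therefore given also after each library's trends with GC content and gene length were removed, under which IGF2BP3 had a log2 fold change of −0.22 and its groups overlapped. The paper also reports the knockdown in HCT116 cells from qPCR and Western blotting, which are separate from these libraries. No label says that the libraries of a group came from separate cultures, so the SDs and p-values cover the spread between these libraries, which may be technical.

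After removal of genes with too few counts, 39 of the 40 genes were tested among 16753. DERL3, a derlin of secretory tissues, had 6 counts over the 6 libraries and was not tested. Per kilobase of exon, the most abundant of the 40 was CALR (mean FPKM over the 6 libraries 347), followed by HSPA5 (217), PDIA4 (146) and P4HB (130). The sensors were scarce on this scale, with a mean FPKM of 2.07 for ERN1, 1.59 for EIF2AK3 and 4.37 for ATF6. FPKM divides by the length of all annotated exons of a gene and so gives low values to genes with long exonic sequence.

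No gene of the 40 passed a 1.5-fold change with an adjusted p below 0.05 in edgeR in either direction, and the share of all tested genes that did so was 0%. At an unadjusted p below 0.05, 7 of 39 genes (17.9%) were higher in sh-IGF2BP3, against 13.6% of all tested genes, and 5 of 39 (12.8%) were lower, against 8.54%. The 7 higher genes were TXNDC5, SEC61B, SDF2L1, CRELD2, CALR, PRDX4 and MANF, and the 5 lower genes were ATF6, SEC63, EDEM3, EDEM1 and SEL1L. The 3 sh-IGF2BP3 libraries lay above all 3 sh-NC libraries for 5 of 39 genes, against 13.2% of all tested genes. They lay below all 3 for 8 of 39 genes (20.5%), against 11%. The median log2 fold change was 0.163 over the 39 genes and −0.014 over all tested genes. Taking each of the 39 genes relative to its own mean, the libraries' median log2 CPM had a within-group SD of 0.151. The median fold change was thus of about the size of the spread between libraries of a group. Genes with groups apart were thus about as frequent among the 39 as among all genes in the higher direction (12.8%). In bulk RNA, fewer cells with a transcript and less of it per cell cannot be told apart.

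With DESeq2, which tested the same counts, 3 genes passed both thresholds as higher (TXNDC5, SDF2L1 and SEC61B) against 4.48% of all genes with an adjusted p, and ATF6 passed as lower against 1.06%. With no filter on low counts, edgeR called TXNDC5, SDF2L1 and SEC61B higher against 1.89% of all genes, and called none of the 40 lower against 0.413%. These 4 genes had the largest log2 fold changes of the set in either direction as counted.

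**Figure D1:**
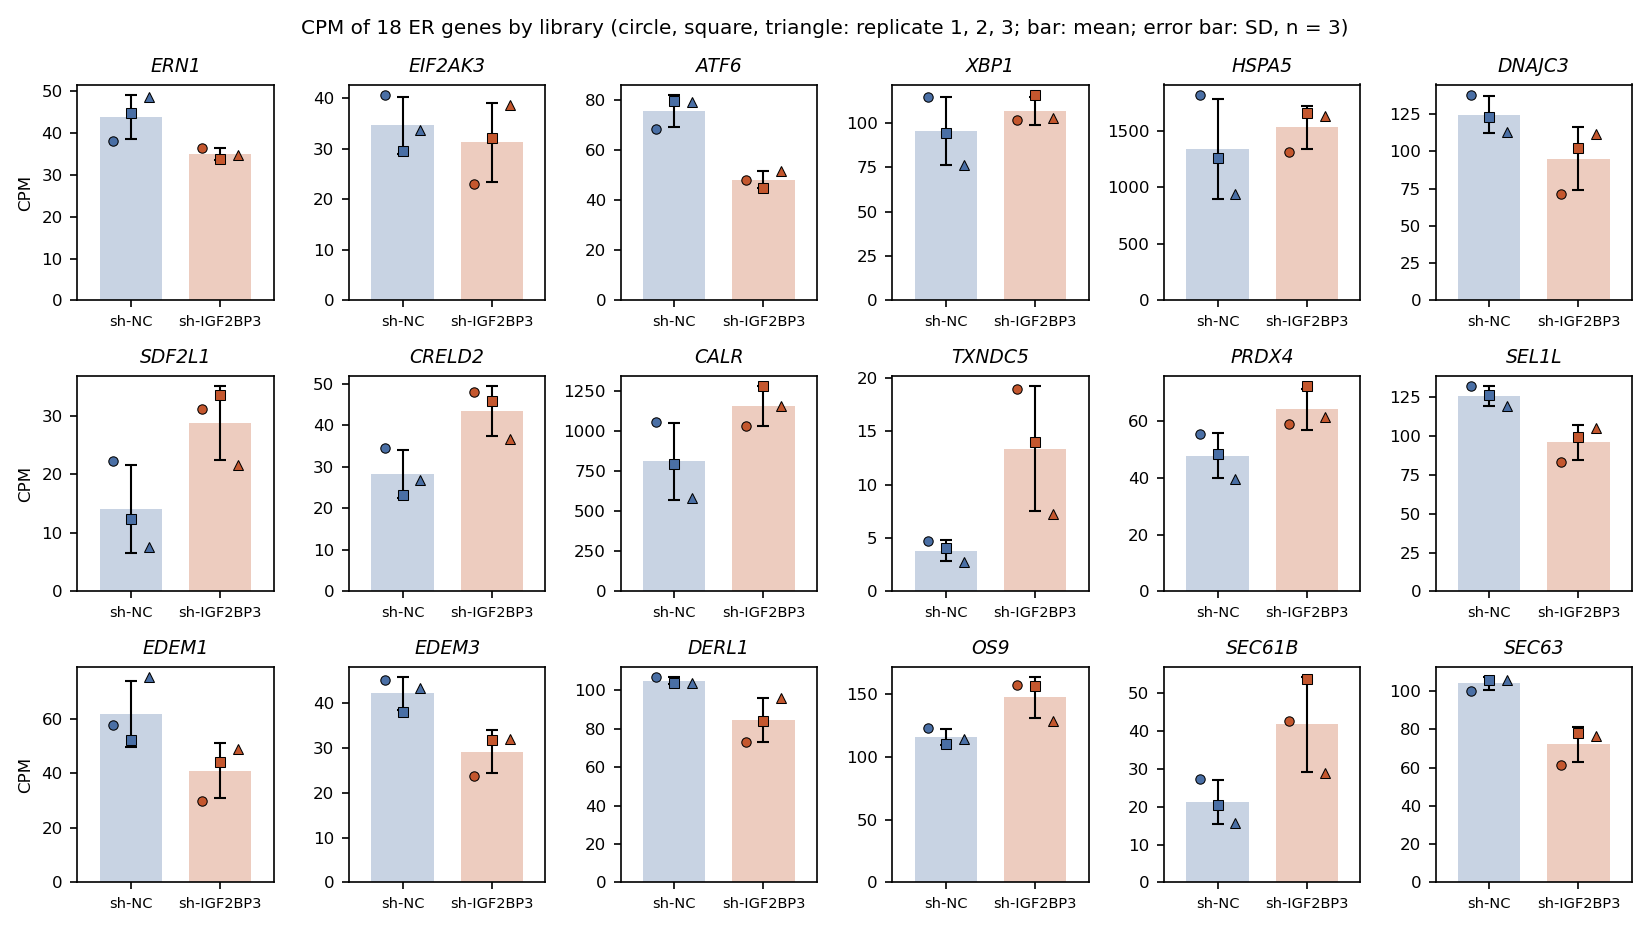
CPM (linear axis from 0) of the 18 genes described by library, with bars for the group mean, error bars for the SD (n = 3) and circles, squares and triangles for replicates 1, 2 and 3 of each group. The sh-IGF2BP3 points of TXNDC5, between 7.21 and 18.9 CPM, lie above all sh-NC points, and those of ATF6, between 44.7 and 51.6 CPM, lie below, while the points of HSPA5 overlap.

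Among the sensors and transcription factors, the membrane-bound factor ATF6 (chr1:161766298-161977574, plus strand) had the lowest log2 fold change of the 39 tested genes as counted. It was at 68.3, 79.4 and 79.1 CPM in sh-NC 1 to 3 and at 47.9, 44.7 and 51.6 CPM in sh-IGF2BP3 1 to 3. The groups were well apart, with the controls varying by at most 1.16-fold between themselves and the knockdown libraries by at most 1.15-fold. The log2 fold change was −0.65 (SE 0.18), with an adjusted p of 0.103 in edgeR, 0.029 in DESeq2 and 0.0157 in edgeR without sh-NC 1, and over all alternatives the adjusted p ran from 0.0157 to 0.795. Removal of the GC and length trends left ATF6 at −0.28 (SE 0.14, adjusted p = 0.499). ERN1, which encodes the kinase and RNase IRE1, was at 38.0, 44.8 and 48.5 CPM in sh-NC and at 36.5, 33.7 and 34.6 CPM in sh-IGF2BP3. Its groups did not overlap, but the gap between the lowest control and the highest knockdown library was small and its log2 fold change was −0.32 (SE 0.19, adjusted p = 0.313). EIF2AK3, which encodes the kinase PERK, was at 40.7, 29.5 and 33.8 CPM in sh-NC and at 23.0, 32.2 and 38.6 CPM in sh-IGF2BP3. Its groups overlapped, with a log2 fold change of −0.15 (SE 0.22, adjusted p = 0.721) that turned to 0.16 once the GC and length trends were removed. XBP1, the transcription factor made from the mRNA that IRE1 splices, was at 115, 94.7 and 76.6 CPM in sh-NC and at 102, 116 and 103 CPM in sh-IGF2BP3. The control libraries alone spanned 1.51-fold, and the log2 fold change of XBP1 was 0.16 (SE 0.19, adjusted p = 0.639). CREB3L2, a relative of ATF6 that is also cleaved in the Golgi, had a log2 fold change of −0.30 (SE 0.20). Of these 5 genes, 4 had a negative log2 fold change.

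In the group of HSP70 and HSP90 chaperones and their cofactors, HSPA5 (chr9:125234853-125241382, minus strand) is the main chaperone and the usual readout of ER stress. It was at 1820, 1257 and 941 CPM in sh-NC and at 1310, 1657 and 1628 CPM in sh-IGF2BP3. The highest value of all 6 libraries was in a control, sh-NC 1, and the controls spanned 1.93-fold. The log2 fold change of HSPA5 was 0.19 (SE 0.24, adjusted p = 0.65), so a difference was not separated from the spread between the control libraries. SDF2L1 (chr22:21642302-21644299, plus strand), a partner of the ER J-domain proteins that is strongly induced by ER stress, was at 22.3, 12.4 and 7.56 CPM in sh-NC and at 31.2, 33.6 and 21.6 CPM in sh-IGF2BP3. Its mean was 2.04 times higher in the knockdown, although sh-NC 1 lay just above sh-IGF2BP3 3. The log2 fold change was 1.03 (SE 0.32), with an adjusted p of 0.117 in edgeR and 0.0432 in DESeq2, from 0.00233 to 0.744 over all alternatives, and it was 0.42 (SE 0.27) with the GC and length trends removed.

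CRELD2, a disulfide isomerase-like protein secreted under ER stress, was at 34.5, 23.2 and 26.8 CPM in sh-NC and at 48.0, 45.8 and 36.6 CPM in sh-IGF2BP3. The groups did not overlap, and the log2 fold change was 0.63 (SE 0.21, adjusted p = 0.125), or 0.47 (SE 0.17) with the trends removed. MANF, a neurotrophic factor that binds HSPA5, had a log2 fold change of 0.53 (SE 0.24, adjusted p = 0.216) with overlapping groups. DNAJC3, the J-domain protein that inhibits PERK, was at 138, 123 and 113 CPM in sh-NC and at 71.4, 102 and 112 CPM in sh-IGF2BP3. Its highest knockdown library nearly reached its lowest control, with a log2 fold change of −0.39 (SE 0.20, adjusted p = 0.26) that was −0.13 with the trends removed. HYOU1, the nucleotide exchange factor of HSPA5, had a log2 fold change of 0.28 and DNAJB11, a J-domain co-chaperone, one of 0.18. HSP90B1 (GRP94) stood at −0.13 and DNAJB9, the J-domain protein that returns HSPA5 to IRE1, at 0.04. DNAJB9 varied by 2.19-fold between the controls and by 2.65-fold between the knockdown libraries. The 9 genes had a median log2 fold change of 0.194, and 3 of them had an unadjusted p below 0.05, each higher, against 13.6% of all tested genes. At that threshold 1 of the 9 was higher with the trends removed, against 6.86%.

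The lectin chaperones calreticulin (CALR) and calnexin (CANX) hold glycoproteins in the same folding cycle. CALR was at 1059, 796 and 582 CPM in sh-NC and at 1032, 1284 and 1157 CPM in sh-IGF2BP3. Only sh-NC 1 reached into the range of the knockdown libraries, and the log2 fold change was 0.51 (SE 0.23, adjusted p = 0.20). CANX had a log2 fold change of −0.13 (SE 0.21), with overlapping groups, so the log2 fold changes of the pair had opposite signs, although with the GC and length trends removed both were positive (0.32 for CALR and 0.20 for CANX).

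Among the genes of oxidative folding, TXNDC5 (ERp46, a protein disulfide isomerase, chr6:7881517-7910788, minus strand) showed the largest difference of the 40 genes. It was at 4.68, 4.09 and 2.71 CPM in sh-NC and at 18.9, 14.0 and 7.21 CPM in sh-IGF2BP3. All 3 knockdown libraries lay above the highest control, although the knockdown libraries themselves spanned 2.62-fold, and the mean was 3.49 times higher. The log2 fold change was 1.80 (SE 0.35), with an adjusted p of 0.103 in edgeR and 0.000643 in DESeq2, from 2.4e-06 to 0.456 over all alternatives. It was 1.72 (SE 0.34) with the trends removed. TXNDC5 was among the scarce genes of the set, with 906 counts over the 6 libraries. Its span lies within that of the readthrough gene BLOC1S5-TXNDC5 on the same strand, which was listed at 0 counts in every library, and how reads shared by the pair were counted is not given in the sources used here.

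PRDX4, the ER peroxiredoxin that uses hydrogen peroxide to oxidize the disulfide isomerases, was at 55.4, 48.2 and 39.7 CPM in sh-NC and at 58.8, 72.3 and 61.2 CPM in sh-IGF2BP3. The groups did not overlap, with a log2 fold change of 0.43 (SE 0.19, adjusted p = 0.21). It was 0.29 with the trends removed, and the groups then overlapped. The disulfide isomerases P4HB, PDIA4 and PDIA6 had log2 fold changes of 0.22, 0.25 and 0.23 as counted and of 0.01, 0.09 and 0.32 with the trends removed. Their partner PDIA3, which works with the lectin chaperones, had one of −0.17 as counted and 0.10 with the trends removed. The processed copy PDIA3P1 had 4.59% as many counts as PDIA3, and how reads that fit both were counted is not given in the sources used here. TXNDC11, a further thioredoxin-domain protein, stood at 0.17. The oxidases that recharge these enzymes, ERO1A and ERO1B, had log2 fold changes of 0.05 and −0.45. With the trends removed, all 9 oxidative folding genes had positive log2 fold changes, from 0.01 to 1.72, and ERO1A was at 0.41 with an unadjusted p of 0.0224. As counted, 7 of the 9 were positive.

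The genes of ER-associated degradation, which recognize, unfold and ubiquitinate terminally misfolded proteins, had negative log2 fold changes in 6 of 9 cases. EDEM3, a mannosidase that marks misfolded glycoproteins, was at 45.2, 38.1 and 43.4 CPM in sh-NC and at 23.7, 31.9 and 32.0 CPM in sh-IGF2BP3. EDEM1, of the same family, was at 57.7, 52.3 and 75.3 CPM in sh-NC and at 29.7, 44.2 and 49.0 CPM in sh-IGF2BP3. Neither gene's groups overlapped, and sh-IGF2BP3 1 was the lowest library for both. For EDEM3 the log2 fold change was −0.53 (SE 0.20) and for EDEM1 it was −0.59 (SE 0.22), each with an adjusted p of 0.147. With the trends removed, these were −0.11 for EDEM3 and −0.40 for EDEM1. SEL1L, the adaptor of the ubiquitin ligase SYVN1 (HRD1), was at 132, 126 and 119 CPM in sh-NC and at 83.5, 99.0 and 105 CPM in sh-IGF2BP3. Its groups did not overlap, with a log2 fold change of −0.39 (SE 0.18, adjusted p = 0.217) that was −0.05 with the trends removed.

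DERL1, a membrane protein of the retrotranslocation channel, was at 107, 104 and 104 CPM in sh-NC and at 73.2, 84.1 and 96.2 CPM in sh-IGF2BP3. The controls agreed within 1.03-fold and all lay above the knockdown libraries, with a log2 fold change of −0.31 (SE 0.18, adjusted p = 0.32). It was −0.07 with the trends removed, and the groups then overlapped. OS9, the lectin that delivers glycoproteins to SEL1L, had a log2 fold change of the opposite sign, and was at 123, 110 and 114 CPM in sh-NC and at 157, 156 and 128 CPM in sh-IGF2BP3. Its groups did not overlap either, and its log2 fold change of 0.35 (SE 0.18, adjusted p = 0.267) was 0.36 with the trends removed. SYVN1 and DERL2 stood at −0.04 and −0.08 and EDEM2 at 0.24. SYVN1 is overlapped over 40.7% of its span by MRPL49 on the opposite strand, and whether strand was used in counting is not given in the sources used here. HERPUD1, a stress-induced scaffold of the SYVN1 complex, had a log2 fold change of 0.33 (SE 0.25) with overlapping groups. The 9 tested genes of this group had a median log2 fold change of −0.076, with 3 of 9 lower at an unadjusted p below 0.05, against 8.54% of all tested genes, and none higher. None of the 9 was lower at that threshold with the trends removed, against 3.59% of all genes, and 1, OS9, was higher, against 6.86%.

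The translocon genes, which encode the channel through which new proteins enter the ER, were split. SEC61B (chr9:99222064-99230615, plus strand), the small β subunit of the channel, was at 27.3, 20.6 and 15.7 CPM in sh-NC and at 42.7, 53.9 and 28.8 CPM in sh-IGF2BP3. The lowest knockdown library lay just above the highest control, and the mean was 1.97 times higher. The log2 fold change was 0.98 (SE 0.26), with an adjusted p of 0.103 in edgeR and 0.0235 in DESeq2, from 0.00471 to 0.456 over all alternatives, and it was 0.93 (SE 0.24) with the trends removed. SEC63, the J-domain protein that recruits HSPA5 to the channel, was at 100, 106 and 106 CPM in sh-NC and at 61.4, 78.3 and 76.6 CPM in sh-IGF2BP3. The groups were apart, with a log2 fold change of −0.53 (SE 0.18, adjusted p = 0.13), which was −0.19 with the trends removed. The γ subunit SEC61G had a log2 fold change of 0.47 (SE 0.24), the pore-forming SEC61A1 one of 0.18 and the SEC63 partner SEC62 one of −0.27. With the trends removed, SEC61G was at 0.70 (SE 0.23, adjusted p = 0.415) and SEC61A1 at 0.15. The groups of SEC61G overlapped on both scales, and sh-IGF2BP3 3, at 21.9 CPM, lay below all 3 controls.

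**Figure D2:**
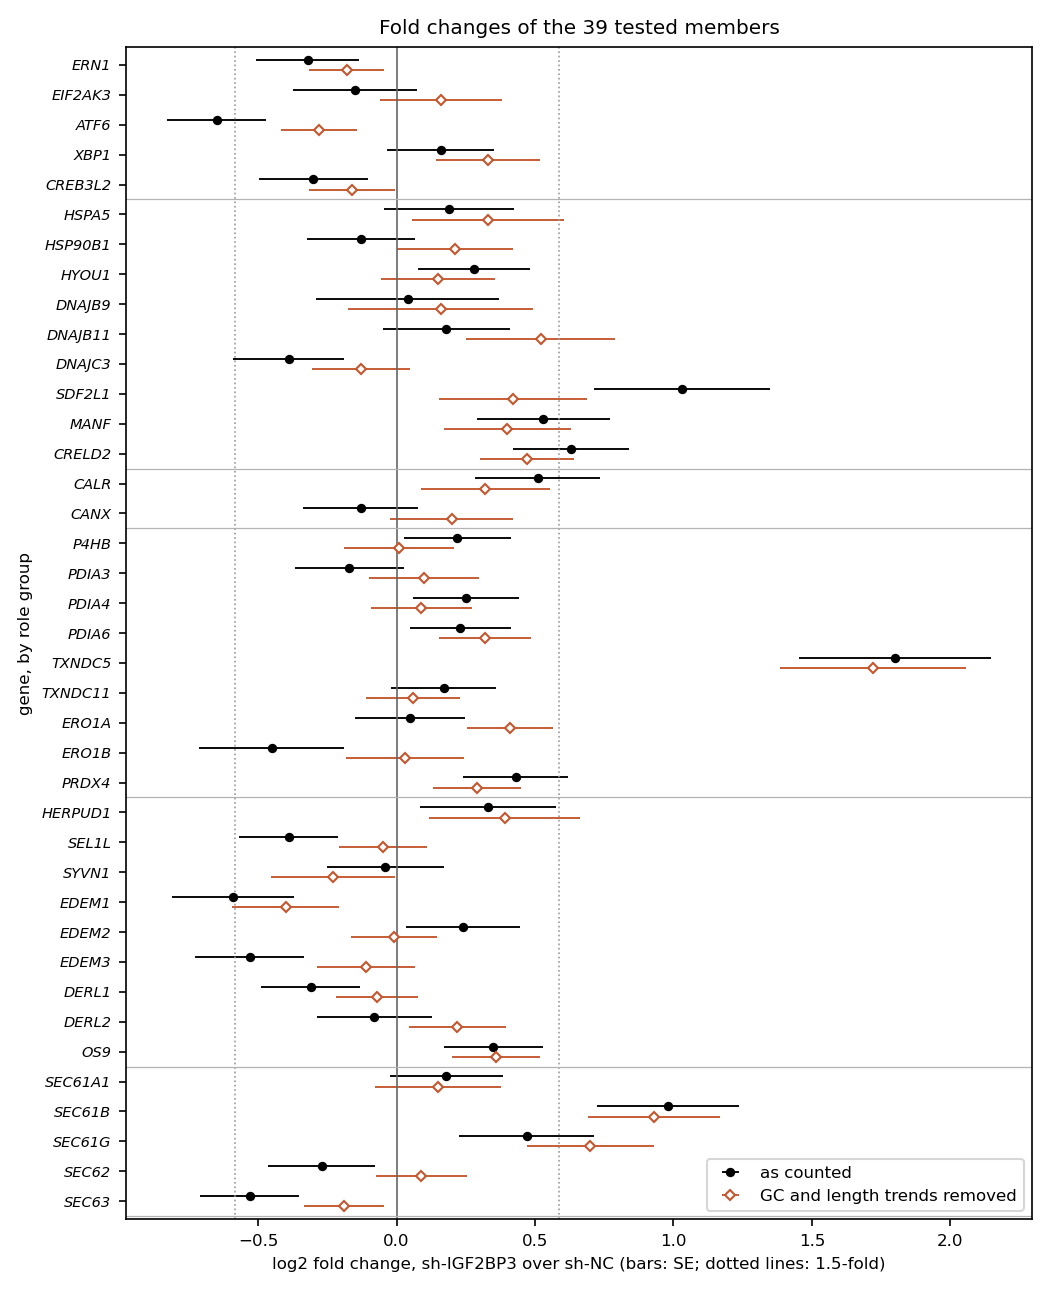
Log2 fold changes (sh-IGF2BP3 over sh-NC) of the 39 tested genes by role group, as counted (filled circles) and with each library's GC and length trends removed (open diamonds), with bars for the SE and dotted lines at 1.5-fold. TXNDC5 and SEC61B lie beyond the dotted line on both scales, whereas SDF2L1 (1.03 and 0.42) and ATF6 (−0.65 and −0.28) lie beyond it as counted and inside it with the trends removed.

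The control libraries differed among themselves in these genes. In 31 of 39 genes (79.5%) sh-NC 1 was the highest of the 3 controls, which held for 40.2% of all tested genes, and in 25 of 39 (64.1%) sh-IGF2BP3 1 was the lowest of the 3 knockdown libraries, against 37.8%. The median deviation of the 39 genes from their own means was 0.19 in sh-NC 1, −0.08 in sh-NC 2 and −0.17 in sh-NC 3 on the log2 CPM scale. It was −0.10, 0.08 and 0.08 in sh-IGF2BP3 1 to 3. In the HSP70 and HSP90 group the same medians were 0.23, −0.22 and −0.44 in sh-NC and −0.10, 0.35 and 0.18 in sh-IGF2BP3. In its chaperone RNA, sh-NC 1 thus lay among the knockdown libraries, and sh-IGF2BP3 1 was the lowest of these. Over the 11 genes with an ERSE or ERSE-II, the median deviations were 0.20, −0.16 and −0.39 in sh-NC and −0.01, 0.22 and 0.18 in sh-IGF2BP3. In 10 of these 11 genes sh-NC 1 was the highest control. The same held in 21 of the other 28 tested genes of the set, with a median deviation of 0.19 in sh-NC 1. The highest control exceeded the lowest by a median of 1.54-fold over the 11 genes, against 1.3-fold over the other 28. The median log2 fold change was 0.23 over the 11 genes and 0.00 over the other 28.

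**Figure D3:**
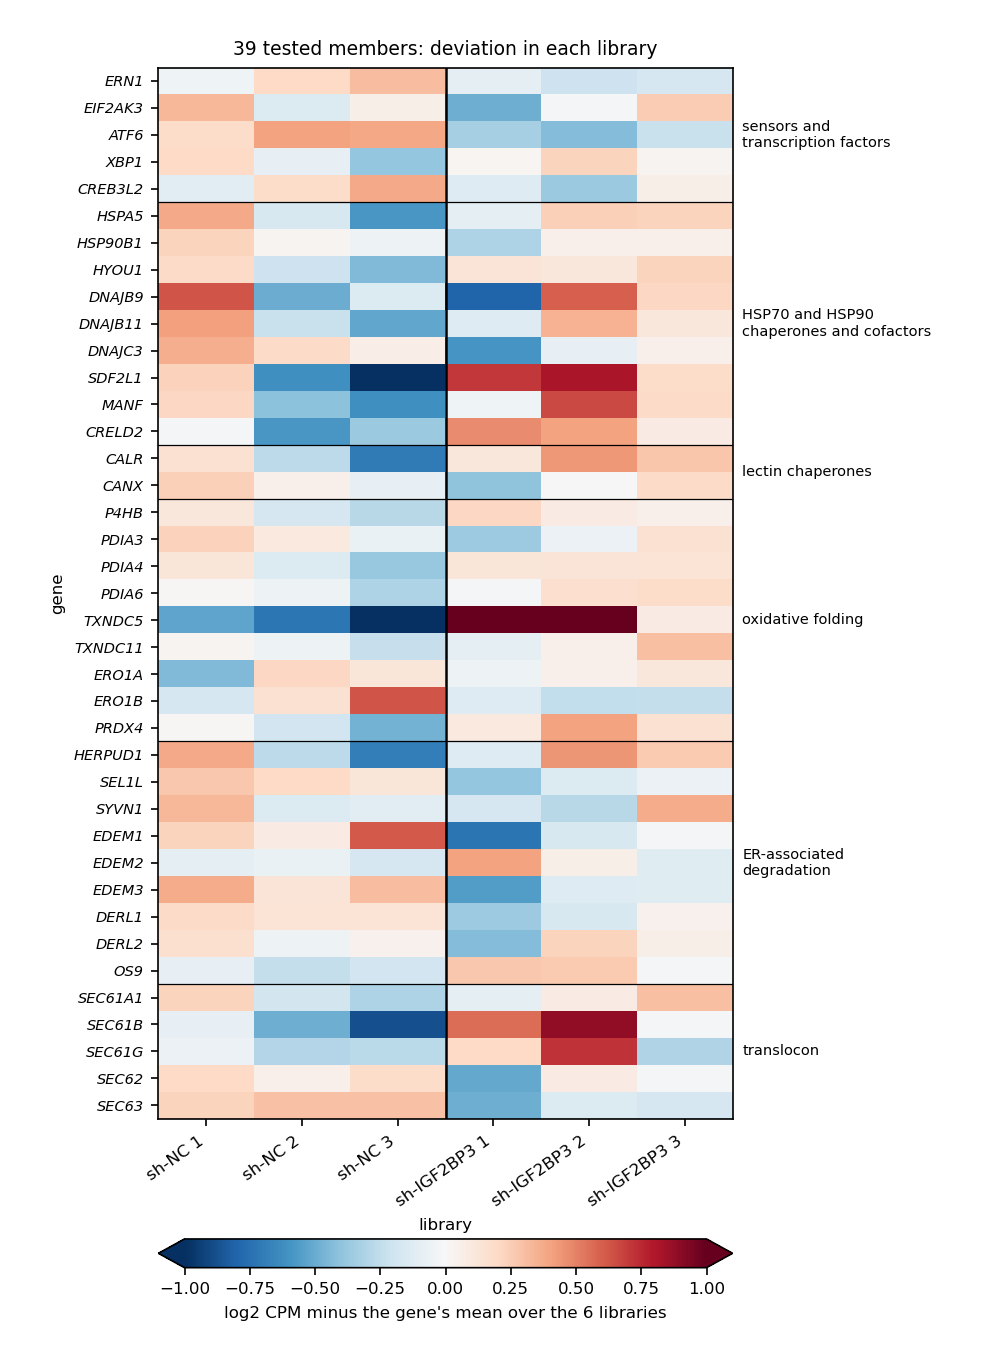
Log2 CPM of the 39 tested genes in each library minus the gene's mean over the 6 libraries, in rows by role group and columns by library, with red for higher and blue for lower and the scale ending at −1 and 1. The sh-NC 1 column is mostly red among the chaperones (median 0.23 in the HSP70 and HSP90 group) and the sh-NC 3 column mostly blue (median −0.44).

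The number of genes called changed most when sh-NC 1 was left out, while leaving out sh-NC 2 or sh-NC 3 gave 0 calls in the set. Without sh-NC 1, edgeR called 7 genes higher (CALR, CRELD2, HERPUD1, MANF, SDF2L1, SEC61B and TXNDC5), against 10% of all tested genes, and 1 lower (ATF6), against 5.67%. Without it HSPA5 had a log2 fold change of 0.48 (SE 0.22, adjusted p = 0.139), and SDF2L1 one of 1.52 (SE 0.27, adjusted p = 0.00233). Without sh-NC 3 the median log2 fold change of the set was −0.025. That of HSPA5 was then −0.028.

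The fold changes of these genes also moved with their base composition and length. Over the 39 genes, whose longest transcripts held 36.1% to 65.5% GC, Spearman's rho of the log2 fold change was 0.57 with GC content and −0.70 with exonic length. With the trends removed, rho over the 39 genes was 0.06 with GC content but still −0.47 with length, against −0.03 with length over all genes. These correlations are across genes of the same 6 libraries and describe them only. SDF2L1, with the highest GC content (65.5%) and the shortest exonic length (1059 bases) of the tested genes, was among the genes with the largest positive difference, and ATF6, at 41.3% GC and 14263 bases, had the lowest. With the GC and length trends removed, 28 of 39 genes (71.8%) had a positive log2 fold change, against 51.4% of all tested genes, and the median was 0.160, against 0.010. The median deviations of the 39 genes on that scale were 0.21, −0.14 and −0.29 in sh-NC 1 to 3. They were −0.09, 0.22 and 0.10 in sh-IGF2BP3 1 to 3, so sh-NC 1 still lay among the knockdown libraries. At an unadjusted p below 0.05, 6 of 39 (15.4%) were then higher, against 6.86% of all genes, and 0 were lower, against 3.59%. The 6 were TXNDC5, SEC61B, SEC61G, CRELD2, ERO1A and OS9, and their smallest adjusted p was 0.415. The groups did not overlap for 6 of 39 higher genes (15.4%), against 8.49% of all genes, and for 2 lower genes (ERN1 and ATF6), against 6.7%. Those 6 higher genes were TXNDC5, SEC61B, CRELD2, ERO1A, OS9 and PDIA6, and did not include SEC61G. TXNDC5, SEC61B, CRELD2 and OS9 were thus higher with groups apart on both scales, while EDEM1, EDEM3, SEL1L, DERL1, DNAJC3 and SEC63 were lower with groups apart only as counted. Of the remaining chaperones, HSPA5 stood at 0.33 on that scale, DNAJB11 at 0.52, MANF at 0.40, HSP90B1 at 0.21, DNAJB9 at 0.16 and HYOU1 at 0.15. Among the sensors XBP1 was at 0.33, ERN1 at −0.18 and CREB3L2 at −0.16. HERPUD1 was at 0.39, DERL2 at 0.22, EDEM2 at −0.01 and SYVN1 at −0.23, and SEC62 was at 0.09, TXNDC11 at 0.06 and ERO1B at 0.03. The part of GC content and length in these differences was not tested.

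**Figure D4:**
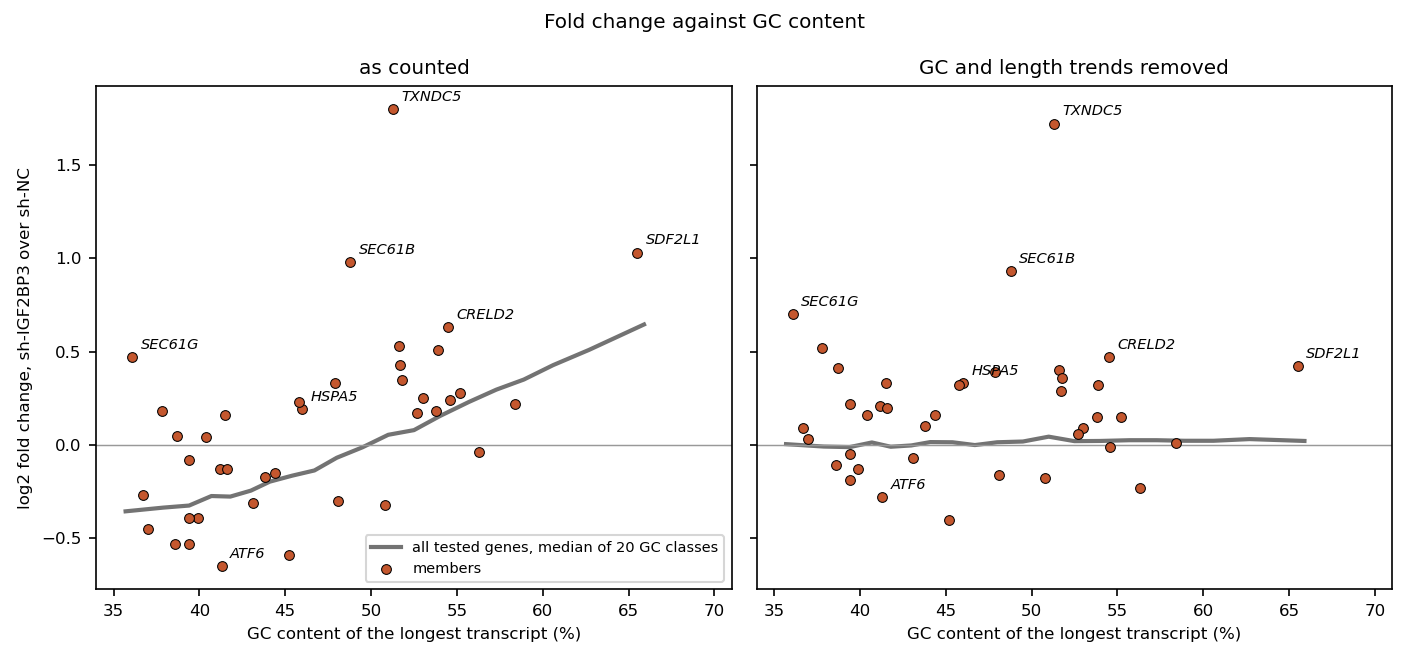
Log2 fold change (sh-IGF2BP3 over sh-NC) against GC content of the longest transcript for the 39 tested genes (points) and the median of all tested genes in 20 GC classes (line), as counted on the left and with GC and length trends removed on the right. SDF2L1 lies at 1.03 on the left and 0.42 on the right, and TXNDC5 at 1.80 and 1.72.

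A further 77 genes of the same compartment and response were listed, of which 74 were tested. Of these, 15 were higher and 7 lower at an unadjusted p below 0.05, against 13.6% and 8.54% of all tested genes, with a median log2 fold change of 0.114. After removal of the trends, 9 were higher and none lower, against 6.86% and 3.59%. The list for the PERK and ATF4 arm, which includes ATF4 itself and the eIF2α gene EIF2S1, was the highest of these lists. In it 8 of 9 genes were positive, with a median log2 fold change of 0.368. Its leading genes were CEBPB, a bZIP transcription factor, at 1.29 (SE 0.36, adjusted p = 0.103) and PPP1R15A (GADD34), which restores translation by dephosphorylating eIF2α, at 0.80 (SE 0.28, adjusted p = 0.13). CEBPB was spread widely in the knockdown, at 72.6, 39.2 and 17.5 CPM, and the groups of both genes overlapped. With the trends removed, none of the 9 genes had an unadjusted p below 0.05, while the median was 0.397 and 7 of 9 were positive. CEBPB then stood at 0.51 and PPP1R15A at 0.42. The 2 negative genes on that scale were CHAC1 at −0.63 and TRIB3 at −0.33, which stood at 0.01 and 0.15 as counted. Without sh-NC 1, the adjusted p was 0.0157 for CEBPB (log2 fold change 1.41) and 0.00418 for PPP1R15A (1.2). It was 0.00213 for the stress-induced factor ATF3 (1.39), a gene picked after its values were seen. For CEBPB, PPP1R15A and ATF3 alike sh-NC 1 was the highest control, so leaving it out raises their fold changes. Of all tested genes, 10% were called higher in that fit. With all 6 libraries, ATF3 stood at 0.70 (SE 0.34, adjusted p = 0.244). Its groups then overlapped, as sh-NC 1, at 69.9 CPM, lay above sh-IGF2BP3 1 and 3, at 51.6 and 61.3 CPM.

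Among 19 other tested folding genes, 8 were higher and 4 lower at an unadjusted p below 0.05, beside the same 13.6% and 8.54% of all genes. Of the 19, 5 were higher and none lower with the trends removed, beside 6.86% and 3.59% of all genes. The collagen chaperone SERPINH1 stood at a log2 fold change of 0.79 (SE 0.25), the cyclophilin PPIB at 0.73 (SE 0.24) and PRKCSH, the β subunit of glucosidase II, at 0.61 (SE 0.22). The lower genes with the smallest p were UGGT2, of the glucosyltransferase family that senses glycoprotein folding, at −0.70 (SE 0.23), CALU, a calcium-binding ER protein, at −0.55 (SE 0.19) and DNAJC10 (ERdj5), a disulfide reductase, at −0.54 (SE 0.20). Of the 7 other transducers tested, TRAF2, which binds IRE1, stood at 0.46 (SE 0.21), CREB3, a membrane-bound transcription factor, at 0.50 (SE 0.20) and MBTPS2, the Golgi protease that makes the second cut in ATF6, at −0.51 (SE 0.20). Of the 14 other degradation genes, 1 was lower at that threshold, the lectin ERLEC1, a relative of OS9, at −0.43 (SE 0.20). Of the 25 genes of translocation and glycosylation, 3 were higher, SSR4 at 0.55 (SE 0.21), SRP14 at 0.47 (SE 0.19) and SSR2 at 0.40 (SE 0.18), which belong to the translocon-associated complex and the signal recognition particle. The signal peptidase subunit SPCS3 was the 1 lower gene, at −0.43 (SE 0.20). With all 6 libraries, edgeR gave each of these genes an adjusted p above 0.05. Without sh-NC 1, 5 of them passed both thresholds as higher and 3 as lower. That fit called 10% of all tested genes higher and 5.67% lower. The genes were named for their p with all 6 libraries, so their counts cannot be compared with those shares. TXNDC12, ERP29 and RCN1, folding genes not named above, also passed as higher without sh-NC 1. Of the named genes, the adjusted p was then below 0.05 for SERPINH1 (0.00269), UGGT2 (0.00698), PPIB (0.00712) and SSR4 (0.0294). It was also below 0.05 for CALU (0.0326), MBTPS2 (0.0346), CREB3 (0.0418) and TRAF2 (0.0439). Removal of the trends brought most of the log2 fold changes nearer to 0. It left TRAF2 at 0.02, CREB3 at 0.18, SSR4 at 0.14, PRKCSH at 0.18, MBTPS2 at −0.09, ERLEC1 at −0.04, SPCS3 at −0.06, DNAJC10 at −0.06, UGGT2 at −0.31 and CALU at −0.27. SERPINH1 then stood at 0.60 and PPIB at 0.56, whereas SRP14 at 0.57 and SSR2 at 0.58 were above their values as counted.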

How the data were processed

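RNA-seq was performed on 6 HCT116 libraries, 3 per group. The authors deposited raw counts per Ensembl gene and FPKM values, and the deposited FPKM were checked to equal counts scaled by library total and by 1 fixed length per gene. The submitters' processing notes name CASAVA and GRCh38. The aligner, counter, annotation release and use of strand are not given in the sources used here. Of the sample columns, 0 were left unused, and reads were not used.

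The count test was edgeR 4.0.16 under R 4.3.3 (filterByExpr, TMM, quasi-likelihood test of the 2 groups, no further term), with Benjamini-Hochberg adjustment over all 16753 genes tested. A gene was called at an adjusted p below 0.05 and a fold change above 1.5, which is 0.58 in log2 units, the thresholds of the study's methods. CPM used TMM factors, log2 CPM a prior count of 2, and standard errors were taken from the fold change and the F statistic. The longest transcript in GENCODE 29 gave the GC content and length came from the ratio of counts to FPKM, known for 96.9% of tested genes, and each library's trends with both (splines, 5 degrees of freedom) were removed as offsets. Alternatives were DESeq2 1.42.0, RLE and upper-quartile normalization, other filters, a replicate block, each library left out, and limma 3.58.1 on log2(FPKM + 1) or log2(FPKM + 0.1). The edgeR and DESeq2 fits were also run on counts simulated from the genes' means and dispersions. That simulation held no GC or length trend, so it does not show how the fits behave under one.

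The genes and lists were chosen with earlier results of these data known. Values by library are given for HSPA5, XBP1, ERN1, EIF2AK3 and ATF6. They are also given for the gene with the smallest p in each role group and for each gene whose groups do not overlap. Of the other ER genes, at most 3 per direction and list with an unadjusted p below 0.05 are named. ATF3 (unadjusted p = 0.0585 in edgeR), CHAC1, TRIB3, TXNDC12, ERP29 and RCN1 are named outside this rule. An exact permutation test of 3 against 3 libraries cannot give a p below 0.1 and was not used.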

Additional observations from a re-analysis of the deposited data

How the results depend on the processing

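The 39 tested genes were refitted under 17 alternatives, except that 38 passed the minimum of 1 on mean FPKM (ERO1B did not), and the cause of each shift was not tested unless stated. As reported, 0 genes were called in either direction. DESeq2 called 3 higher and 1 lower, and no filter on low counts 3 higher. With each library left out in turn, 0 to 7 genes were called higher, the 7 being without sh-NC 1, while leaving out sh-IGF2BP3 3 gave 1, and 0 to 1 lower. The 7 genes higher at an unadjusted p below 0.05 became 4 when every library needed 10 or more counts and 3 to 12 with a library left out. The 5 lower genes became 2 to 6 with a library left out and 0 with the GC and length trends removed, with or without the replicate block. Genes higher with groups apart were 5, and 5 to 17 with a library left out, where fewer libraries make groups lie apart more easily. Genes lower with groups apart were 8, and 2 with the trends removed, with or without the block. The median log2 fold change was 0.163, and −0.025 to 0.253 with a library left out.

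The paper describes 3 pairs of control and knockdown cells, and the sample titles give only cell line, group and replicate number. Same-numbered libraries had correlations of −0.284, −0.186 and −0.043 between their deviations. Differently numbered libraries had correlations of −0.258 to 0.323. Equal numbers thus showed no positive correlation, which does not settle whether the samples were paired. With the replicate block, 0 genes were called and 6 higher and 4 lower genes had an unadjusted p below 0.05.

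The sign of 13 genes turned under at least 1 alternative, and none of these was called with either sign. With the trends removed, without and with the block, the log2 fold change became 0.16 and 0.178 for EIF2AK3, 0.208 and 0.228 for HSP90B1, 0.201 and 0.222 for CANX, 0.10 and 0.114 for PDIA3, 0.0296 and 0.032 for ERO1B, −0.0097 and −0.0145 for EDEM2, 0.215 and 0.216 for DERL2, and 0.0852 and 0.0885 for SEC62. Under upper-quartile normalization it was −0.0191 for DNAJB9 and −0.0168 for ERO1A. On the log2 FPKM scale DNAJB9 was at −0.059 with a pseudocount of 1, with or without a filter, and at −0.0708 with 0.1, and ERO1A at −0.0057 and −0.0036. With a library left out the log2 fold change ran from −0.345 to 0.035 for EIF2AK3, −0.0279 to 0.483 for HSPA5, −0.278 to 0.427 for DNAJB9, −0.0252 to 0.487 for DNAJB11, −0.28 to 0.0218 for CANX, −0.123 to 0.179 for ERO1A, −0.282 to 0.131 for SYVN1 and −0.212 to 0.0957 for DERL2. Depth limits the scarce genes most, with 906 counts in all for TXNDC5 and 6 for DERL3.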
